A study of Mus musculus with 8 samples.

Results

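The genes described here are 40 that carry out DNA replication (S phase) and mitosis, chosen by name with earlier results of these data known. They were Cdk1, Top2a, Mki67, Ccna2, Ccnb1, Ccnb2, Bub1, Bub1b, Aurka, Aurkb, Plk1, Kif11, Kif20a, Kif20b, Kif23, Kif4, Cenpe, Cenpf, Nusap1, Tpx2, Prc1, Birc5, Cdc20, Cdca8, Cdc25b, Cdc25c, Mcm2 to Mcm7, Pcna, Rrm2, Tyms, Ect2, Anln, Smc2, Smc4 and Hmmr. All 40 were found among the 37310 genes of the count table, and all 40 passed the low-count filter that left 17913 genes for testing. RNA came from the hippocampus of 4 Nr2f1 heterozygotes and 4 wild-type (WT) mice. All 8 animals were B6.129 F1 hybrids, 3 months old and labelled male, with no treatment given, and the labels call the 4 of each genotype biological replicates. The labels name the heterozygotes only as Nr2f1 het, with no allele, promoter or construct given. Nr2f1 encodes COUP-TF1, a nuclear receptor that patterns the developing forebrain.

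Dividing cells load the Mcm helicase onto origins in G1, copy their DNA in S phase with Pcna as the sliding clamp, and enter mitosis when Cdk1 bound to cyclins A and B is switched on by the Cdc25 phosphatases. Aurora kinases, Plk1 and the Bub proteins then control the spindle and its checkpoint, and kinesins, Prc1, Ect2 and Anln divide the cell. In the adult hippocampus most cells have left the cycle. Division continues in progenitors of the dentate gyrus and in cells of the oligodendrocyte lineage, and such cells are a small part of the whole tissue.

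The Nr2f1 transcript followed the labels. It was at 28.5 to 33.5 CPM in heterozygotes and 49.5 to 54.1 CPM in WT, where CPM is the read count scaled to a common library size after TMM normalisation, a log2 fold change of -0.73 ± 0.0511 (SE, edgeR adjusted p = 7.32e-05). The libraries went against their label of sex. Xist, the RNA that coats an inactive X chromosome, was at 463 to 547 CPM in heterozygotes and 502 to 601 CPM in WT, and the 14 Y-linked genes had 3 counts over all 8 libraries. Libraries held 58717305 to 88831603 gene counts in heterozygotes and 76154175 to 90043971 in WT. A count of 0 allows up to 3 counts, or 0.0332 to 0.051 CPM by library, which covers counting error only. Hippocampal neuron markers were present in every library: a list of 10, among them Prox1, Wfs1 and Camk2a, summed to 7710 to 8830 CPM in heterozygotes and 8180 to 9150 CPM in WT. Of these 10, Wfs1 fell and 9 did not pass. The mix of the ERCC spike-in RNAs differed between odd-numbered and even-numbered libraries in both genotypes. Their share of reads split the same way, at 0.0431% to 0.0491% in odd-numbered and 0.0713% to 0.0787% in even-numbered libraries. Scaling to the spike-in RNAs carries this split into each genotype, and under it the Nr2f1 call was lost too (edgeR adjusted p = 0.897).

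Of the 40 genes, 1 rose and 1 fell in heterozygotes. Cdk1 was 3.21-fold higher and Cdc25b was at 0.832 of WT, and the other 38 did not pass the threshold, an adjusted p of 0.05 in edgeR's quasi-likelihood F test with Benjamini-Hochberg adjustment over all genes tested. Among all genes tested 2.99% passed, 2.62% as higher and 0.368% as lower, against 5% of the 40. At an unadjusted edgeR p under 0.05 there were 8 of the 40, 7 with a higher and 1 with a lower value, which is 20% of them against 17.2% of all genes. These shares are close to the background, so the number of calls says nothing particular about cell cycle genes. The median log2 fold change of the 40 was 0.14, with 34 values above 0 and 6 below. With spike-in scaling, which moved the median of all genes to 0.091, 37 were above 0. All genes tested had a median of -0.0056, and 47.9% of them were above 0. At a mean of 0.5 to 1 CPM, 6 of 8 of the 40 genes were above 0, against 55% of all genes tested. At 1 to 5 CPM the values were 16 of 18 and 60.2%. Libraries of the genotypes did not overlap for 4 of the 40 genes with higher values (Cdk1, Bub1, Aurkb and Mcm3) and 1 with lower values (Cdc25b), where 10.6% of all genes tested separated, 6.99% with higher and 3.59% with lower values. Bub1 and Aurkb reached the low-count cutoff in all 4 heterozygote libraries but not in all 4 WT libraries. Their separation in this direction was thus favoured by the filter.

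**Figure D1:**
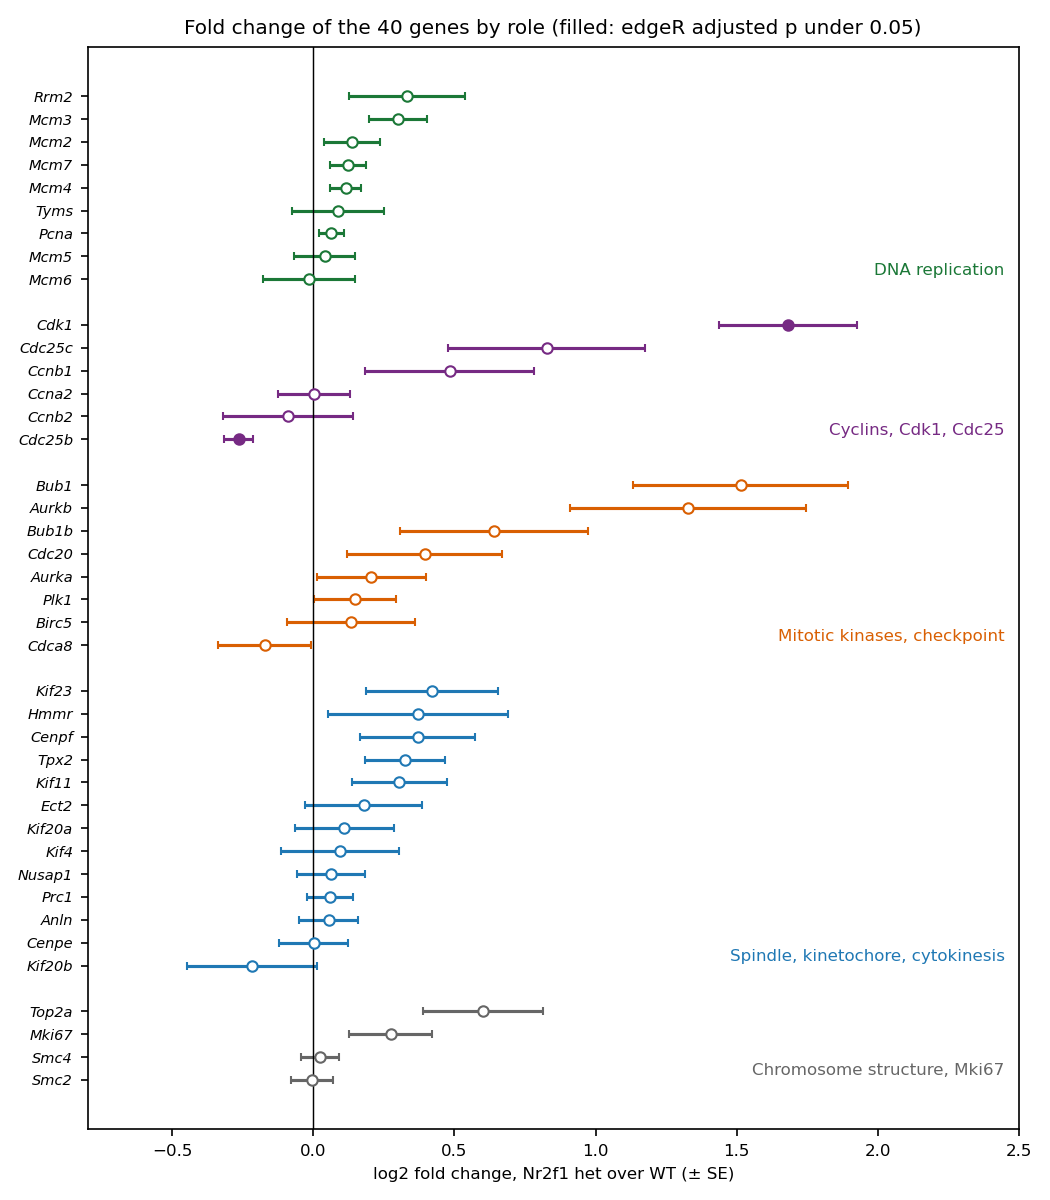
Log2 fold change of heterozygotes over WT (x axis) with its standard error for the 40 genes, grouped by role (4 libraries a genotype). Filled points mark Cdk1, at 1.68, and Cdc25b, at -0.26, which passed the test, and open points mark the 38 genes that did not.

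Cdk1 (ENSMUSG00000019942.6, chromosome 10) encodes the kinase that drives entry into mitosis. It was at 0.748, 0.853, 0.774 and 0.876 CPM in heterozygote libraries 1 to 4 and at 0.147, 0.323, 0.201 and 0.323 CPM in WT libraries 1 to 4. Every heterozygote library was above every WT library. The reads behind these values were few, with 44 to 71 counts in a heterozygote library and 11 to 29 in a WT library. The means were 0.813 ± 0.0613 CPM in heterozygotes and 0.248 ± 0.0888 CPM in WT (SD, n = 4 each), a log2 fold change of 1.68 ± 0.245 (SE, edgeR adjusted p = 0.00602). An exact two-sided permutation test of the CPM gave p = 0.0286, the smallest that 4 libraries against 4 can give. Odd-numbered libraries alone gave 2.13 (edgeR adjusted p = 0.0247), and even-numbered libraries alone gave 1.42, which did not pass (edgeR adjusted p = 0.129). Without WT libraries 1 and 3, the lowest for Cdk1 in WT, it was 1.33 (edgeR adjusted p = 0.0441). Scaled to the spike-in RNAs, whose mixes differed within each genotype, it was 1.78 and did not pass (edgeR adjusted p = 0.253). In whole tissue, more cells with the transcript and more transcript per cell cannot be told apart.

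Cdc25b (ENSMUSG00000027330.9, chromosome 2), a phosphatase gene that acts on Cdk1, went the other way and was far more abundant. It was at 19.6, 22.1, 19.1 and 20 CPM in heterozygote libraries 1 to 4 and at 25.3, 24.2, 23.6 and 24.0 CPM in WT libraries 1 to 4. The genotypes did not overlap. Means were 20.2 ± 1.33 CPM in heterozygotes and 24.2 ± 0.720 CPM in WT (SD, n = 4 each), a log2 fold change of -0.26 ± 0.0521 (SE, edgeR adjusted p = 0.0201; exact two-sided permutation p = 0.0286). With libraries left out one at a time, the call was lost without heterozygote library 1, 3 or 4 (edgeR adjusted p = 0.0590, 0.0541 and 0.0565) and without WT library 1 or 3 (edgeR adjusted p = 0.0692 and 0.0511), while the log2 fold change stayed between -0.31 and -0.24. Odd-numbered libraries alone gave -0.33 and even-numbered libraries alone -0.20 (edgeR adjusted p = 0.0549 and 0.465). It was -0.26 without WT libraries 1 and 3 (edgeR adjusted p = 0.132) and -0.17 with spike-in scaling (edgeR adjusted p = 1). The exons of Cdc25b share 92 bases with those of Spef1 on the opposite strand, 2.47% of its exon length, and reads of an unstranded library there cannot be assigned to either gene.

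The other cyclin and Cdc25 genes did not pass. Cdc25c, which removes the inhibitory phosphates from Cdk1 at mitotic entry, was at 0.238, 0.339, 0.442 and 0.234 CPM in heterozygote libraries and 0.173, 0.127, 0.138 and 0.278 CPM in WT libraries (log2 fold change 0.83 ± 0.350 (SE), edgeR adjusted p = 0.245). The heterozygote range overlapped WT library 4. The B-type cyclin genes, whose products are the mitotic partners of Cdk1, differed by 0.48 ± 0.299 for Ccnb1 and -0.090 ± 0.230 for Ccnb2 on the log2 scale (SE), and each had overlapping genotypes. The sign for Ccnb2 turned with spike-in scaling. Ccnb1 was at 0.358 ± 0.0991 CPM in heterozygotes and 0.262 ± 0.0746 CPM in WT (SD, n = 4 each). Ccna2, which encodes the cyclin of S phase and early mitosis, averaged 3.11 ± 0.224 CPM in heterozygotes and 3.11 ± 0.512 CPM in WT (SD, n = 4 each). Opposite-strand exons of Exosc9 cover 12.5% of the exon length of Ccna2, and those of Gm3550 cover 12.7% of that of Cdc25c. Part of the counts of Ccna2 and Cdc25c may be of those genes. Cdk1 thus rose without a call for any of its 3 listed cyclin partners. Whether its difference exceeds theirs was not tested.

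**Figure D2:**
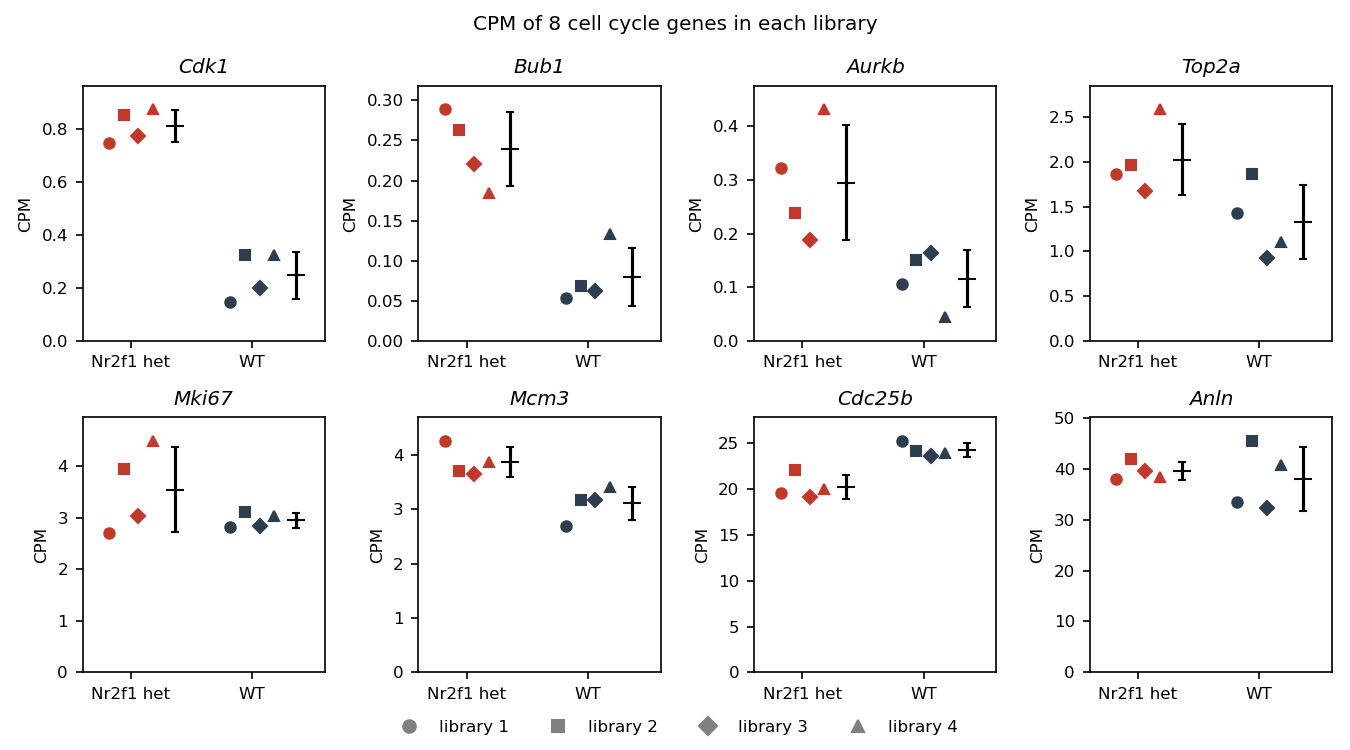
CPM in each library for 8 of the genes, heterozygotes in red on the left and WT in dark blue on the right of each panel, with black bars for the mean and SD (n = 4 each). The genotypes are apart for Cdk1, Bub1, Aurkb, Mcm3 and Cdc25b, and overlap for Top2a, Mki67 and Anln.

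The 250 bases upstream of the start are given for the 5 genes with an unadjusted p under 0.05 and a promoter in the RefSeq table for GRCm38.p6, since they show which cell cycle promoter elements the genes share. Capitals mark matches, on either strand, to the cell cycle homology region (CHR, TTTGAA), bound by the DREAM and MuvB complexes of mitotic genes, to the CCAAT box (CCAAT), bound by NF-Y, and to 3 forms of the E2F site (TTTCGCGC, TTTGGCGC and TTCCCGCC). The matches did not overlap each other. Coordinates are of GRCm38.p6 and the sequences run 5′ to 3′ on the strand of the gene.
Cdk1, chr10:69352913-69353162, minus strand: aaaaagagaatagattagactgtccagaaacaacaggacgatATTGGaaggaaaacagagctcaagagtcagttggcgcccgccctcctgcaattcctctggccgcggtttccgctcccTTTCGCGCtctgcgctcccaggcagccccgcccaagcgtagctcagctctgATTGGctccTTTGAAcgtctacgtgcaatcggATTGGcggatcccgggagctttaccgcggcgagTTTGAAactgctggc
Cdc25b, chr2:131186698-131186947, plus strand: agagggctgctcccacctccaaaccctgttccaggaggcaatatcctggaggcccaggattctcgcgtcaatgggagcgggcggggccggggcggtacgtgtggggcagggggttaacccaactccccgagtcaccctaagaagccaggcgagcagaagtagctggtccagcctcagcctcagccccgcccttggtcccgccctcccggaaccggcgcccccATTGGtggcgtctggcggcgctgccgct
Bub1, chr2:127831860-127832109, minus strand: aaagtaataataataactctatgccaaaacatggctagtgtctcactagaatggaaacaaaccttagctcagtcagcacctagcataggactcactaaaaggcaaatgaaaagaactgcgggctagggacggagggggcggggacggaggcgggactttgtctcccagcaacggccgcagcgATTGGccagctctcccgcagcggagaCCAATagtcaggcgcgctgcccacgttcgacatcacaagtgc
Mcm3, chr1:20820313-20820562, minus strand: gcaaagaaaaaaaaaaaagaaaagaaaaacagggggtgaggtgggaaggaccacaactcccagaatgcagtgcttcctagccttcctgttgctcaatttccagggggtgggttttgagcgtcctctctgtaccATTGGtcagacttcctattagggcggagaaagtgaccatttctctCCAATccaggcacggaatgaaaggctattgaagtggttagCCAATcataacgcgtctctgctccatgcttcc
Top2a, chr11:99024190-99024439, minus strand: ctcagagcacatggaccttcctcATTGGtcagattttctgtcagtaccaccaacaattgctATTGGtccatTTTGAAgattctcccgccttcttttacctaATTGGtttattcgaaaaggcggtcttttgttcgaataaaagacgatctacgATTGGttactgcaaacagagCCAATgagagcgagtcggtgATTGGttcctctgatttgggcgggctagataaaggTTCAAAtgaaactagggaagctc

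Cdk1 was the only one of the 33 matched promoters of the 40 genes to hold all 3 kinds of element: an E2F match 131 to 124 bases upstream of the start, 2 CHR matches at 71 to 66 and 15 to 10 bases, and 3 CCAAT matches. All 3 kinds occurred in 0.13% of the 27025 promoters of the table, counting the first start listed for each gene. Top2a had 2 CHR and 6 CCAAT matches, Mcm3 had 3 CCAAT matches, Bub1 had 2 and Cdc25b had 1. Across the 33 promoters the CCAAT box was in 28, or 84.8%, against 34.5% of all promoters. The CHR was in 9, or 27.3%, against 16.3%, and an E2F match in 3, or 9.09%, against 2.52%. Each of the 9 with a CHR also held a CCAAT box. Besides Cdk1 these were Mcm2, Ccnb2, Cdc20, Kif11, Ect2, Top2a, Smc2 and Mki67, none of which passed the test. Matches describe the letters in these windows only. Mcm4, Ccna2, Cdc25c, Aurkb, Kif20a, Tpx2 and Smc4 were not matched.

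**Figure D3:**
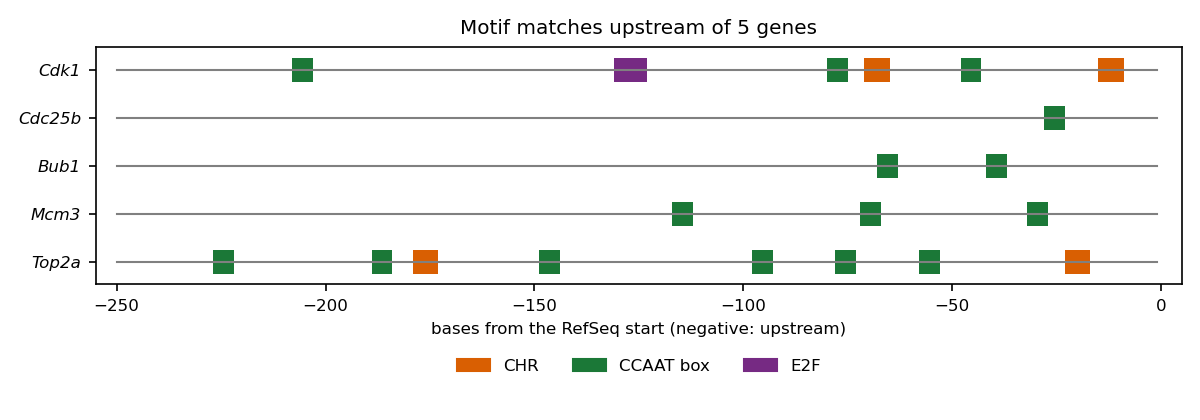
Positions of motif matches in the 250 bases upstream of the RefSeq start of 5 genes (x axis, bases from the start), coloured by motif, with 1 line a gene. Cdk1 holds 6 matches of 3 kinds and Cdc25b holds 1.

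Among the mitotic kinases and the checkpoint none of 8 genes passed. Bub1 (ENSMUSG00000027379.7, chromosome 2), a kinase gene of the spindle checkpoint, was at 0.289, 0.263, 0.221 and 0.185 CPM in heterozygote libraries and 0.0533, 0.0691, 0.0627 and 0.133 CPM in WT libraries. The genotypes did not overlap, on 15 to 21 counts in a heterozygote library and 4 to 12 in a WT library. The log2 fold change was 1.51 ± 0.381 (SE) and fell just outside the threshold (edgeR adjusted p = 0.0535). Bub1 passed without WT library 4 (edgeR adjusted p = 0.0292), with the DESeq2 Wald test (adjusted p = 0.0375) and with limma-voom (adjusted p = 0.0389). WT library 4 was its highest in WT and the only 1 there at the low-count cutoff. Bub1 did not pass with any other library left out (edgeR adjusted p up to 0.153) or with spike-in scaling. It also did not pass without the low-count filter (edgeR adjusted p = 0.0682) or without WT libraries 1 and 3 (0.383). Within odd-numbered or even-numbered libraries it did not pass either (edgeR adjusted p = 0.157 and 0.659).

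Aurkb, the kinase of the chromosomal passenger complex, was at 0.323, 0.238, 0.188 and 0.432 CPM in heterozygote libraries and 0.107, 0.150, 0.163 and 0.0445 CPM in WT libraries. These did not overlap either, and the log2 fold change was 1.33 ± 0.418 (SE, edgeR adjusted p = 0.112). Aurkb had 17 to 35 counts in a heterozygote library and 4 to 13 in a WT library. It reached the low-count cutoff in 4 heterozygote and 2 WT libraries, so its direction was favoured by the filter. Of its partners in that complex, Birc5, or survivin, had a log2 fold change of 0.13 ± 0.227 and Cdca8, or borealin, of -0.17 ± 0.165 (SE; edgeR adjusted p = 0.821 and 0.646), and their libraries overlapped. Whether these differ from the value of Aurkb was not tested. Bub1b, the checkpoint protein BubR1, differed by 0.64 ± 0.333 (SE, edgeR adjusted p = 0.357). Cdc20, which activates the anaphase-promoting complex, averaged 0.680 ± 0.254 CPM in heterozygotes and 0.531 ± 0.110 CPM in WT (SD, n = 4 each). Aurka and Plk1, kinases of the spindle poles, had log2 fold changes of 0.20 ± 0.193 and 0.15 ± 0.145 (SE).

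None of the 13 spindle, kinetochore and cytokinesis genes passed, and their log2 fold changes ran from -0.22 for Kif20b to 0.42 for Kif23, with a median of 0.11. Tpx2, a spindle assembly factor that activates Aurka, was at 2.36, 3.30, 2.75 and 2.8 CPM in heterozygote libraries and 2.12, 2.78, 2.24 and 1.88 CPM in WT libraries (log2 fold change 0.32 ± 0.143 (SE), edgeR adjusted p = 0.268). Its genotypes overlapped, with WT library 2 above heterozygote library 1. The kinesin genes Kif11, Kif23, Kif4 and Kif20a, for spindle bipolarity, the central spindle, chromosomes and cytokinesis, differed by 0.30, 0.42, 0.095 and 0.11 on the log2 scale. Exons of Cdc23 on the opposite strand cover 29.3% of the exon length of Kif20a, so part of its count may be of Cdc23. The same holds for Pdzd11 over 15.1% of Kif4 and for Rccd1 over 11.1% of Prc1. Cenpe, a kinetochore motor, and Cenpf, a kinetochore protein, differed by 0.0010 ± 0.122 and 0.37 ± 0.203 (SE). The microtubule proteins Hmmr, Nusap1 and Prc1 and the cytokinesis regulator Ect2 had log2 fold changes of 0.37, 0.063, 0.058 and 0.18.

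Anln, an actin and septin scaffold of the cleavage furrow that is also made by myelinating oligodendrocytes, was the most abundant of the 40 in CPM. It was at 38.0, 42.0, 39.6 and 38.4 CPM in heterozygote libraries and 33.5, 45.5, 32.3 and 40.8 CPM in WT libraries, a log2 fold change of 0.054 ± 0.105 (SE, edgeR adjusted p = 0.851). The heterozygotes lay inside the WT range, and WT libraries 1 and 3 were the lowest of all 8. Sox10, a transcription factor gene of the oligodendrocyte lineage chosen for display after its values were seen, was also lowest in WT libraries 1 and 3, at 33.4 and 32.7 CPM, against 42.5 and 38.9 CPM in WT libraries 2 and 4 and 41.5, 45.7, 39.0 and 38.9 CPM in heterozygote libraries 1 to 4. Of the other oligodendrocyte precursor markers listed, Olig1, Olig2, Bcas1 and Vcan were lowest within WT in libraries 1 and 3. Pdgfra, Cspg4 and Gpr17 were not. The part of the oligodendrocyte lineage in the values of Anln was not tested.

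None of the 4 chromosome genes passed. Top2a, the topoisomerase that untangles replicated DNA, was at 1.87, 1.97, 1.68 and 2.59 CPM in heterozygote libraries and 1.43, 1.87, 0.927 and 1.11 CPM in WT libraries. WT library 2 reached the heterozygote range, and the log2 fold change was 0.60 ± 0.212 (SE, edgeR adjusted p = 0.156). Mki67, which coats mitotic chromosomes and is the standard stain for cycling cells, was at 2.70, 3.95, 3.03 and 4.5 CPM in heterozygote libraries and 2.83, 3.11, 2.84 and 3.04 CPM in WT libraries. Heterozygote libraries 2 and 4 were above every WT library and heterozygote library 1 was below every one, and the log2 fold change was 0.27 ± 0.147 (SE, edgeR adjusted p = 0.370). The condensin genes Smc2 and Smc4 differed by -0.0060 ± 0.0749 and 0.025 ± 0.0675 (SE), and the sign for Smc2 turned with upper quartile and spike-in scaling.

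DNA replication genes did not pass either, 0 of 9. Their median was 0.11 on the log2 scale, and 8 of 9 values were above 0. At an unadjusted edgeR p under 0.05 there was 1 of the 9, Mcm3, and no member of the group passed with DESeq2, limma-voom or any other alternative run. Mcm3, a subunit of the replicative helicase, was at 4.26, 3.70, 3.64 and 3.86 CPM in heterozygote libraries and 2.69, 3.17, 3.17 and 3.40 CPM in WT libraries. All heterozygotes were above all WT libraries, with a log2 fold change of 0.30 ± 0.102 (SE, edgeR adjusted p = 0.142). The other helicase subunits act in the same ring, and Mcm2, Mcm4, Mcm5, Mcm6 and Mcm7 differed by 0.14, 0.11, 0.041, -0.015 and 0.12 on the log2 scale, each with overlapping genotypes and with the sign for Mcm6 turned by spike-in scaling. Pcna averaged 25 ± 0.748 CPM in heterozygotes and 23.9 ± 0.973 CPM in WT (SD, n = 4 each; log2 fold change 0.063 ± 0.0446 (SE), edgeR adjusted p = 0.518). Rrm2 and Tyms, which supply deoxynucleotides, differed by 0.33 ± 0.205 and 0.086 ± 0.163 (SE). Annotated pseudogenes of Pcna, Tyms, Ccnb1, Ccnb2 and Kif4 could share reads with these genes, so their counts are less certain.

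The largest log2 fold change, 1.68 for Cdk1, was at a mean of 0.53 CPM. Bub1, Aurkb, Cdc25c and Bub1b came next, all with a mean under 0.5 CPM. The 6 genes with a mean under 0.5 CPM (Ccnb1, Cdc25c, Bub1, Bub1b, Aurkb and Hmmr) had log2 fold changes of 0.37 to 1.51, all above 0, with a median of 0.73. All 2571 genes tested in that range of level had a median of 0.024, and 52.4% of them were above 0. Bub1, Aurkb and Hmmr reached the low-count cutoff of 0.123 CPM through the heterozygote libraries and not in all 4 WT libraries, so their direction was favoured by the filter. Ccnb1, Cdc25c and Bub1b, which reached the cutoff in every library, had log2 fold changes of 0.48, 0.83 and 0.64 and did not pass. The summed level of the 6, with Bub1, Aurkb and Hmmr included, was 1.84, 1.62, 1.98 and 2.06 CPM in heterozygote libraries and 0.906, 0.991, 1.2 and 1.30 CPM in WT libraries. The 8 genes with a mean of at least 5 CPM had log2 fold changes between -0.26 and 0.12, with a median of 0.056, where the 11556 genes tested at that level had a median of -0.012. Per kilobase of exon, the mean level over the 8 libraries ran from 0.0367 CPM for Bub1 to 10.2 CPM for Pcna, with Cdk1 at 0.107 CPM, Anln at 4.28 CPM and Cdc25b at 5.96 CPM.

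**Figure D4:**
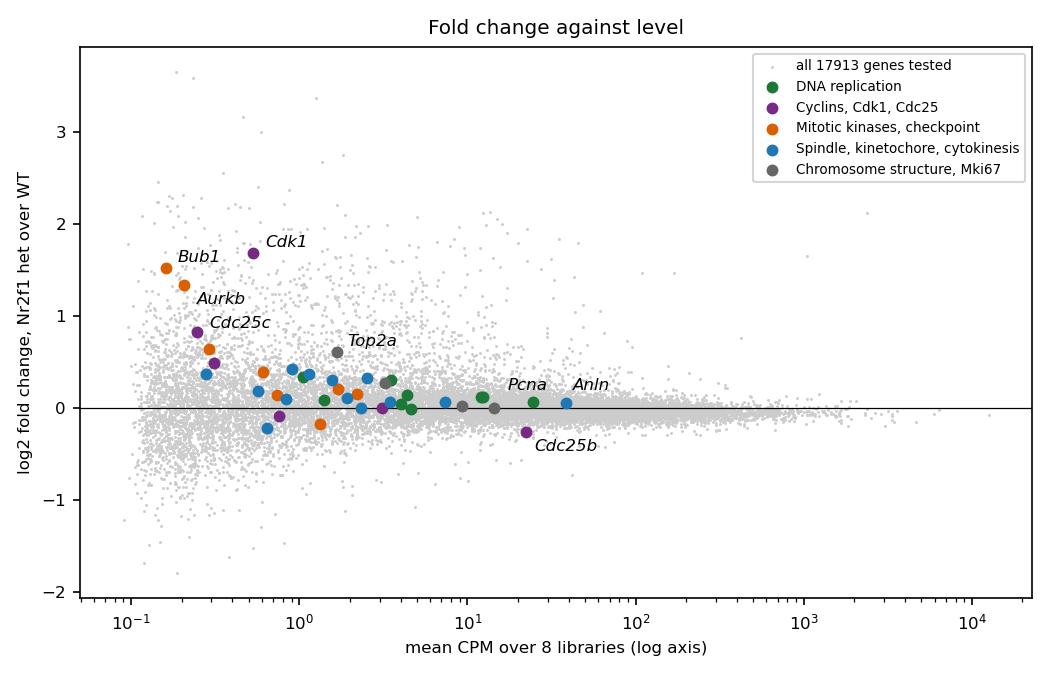
Log2 fold change of heterozygotes over WT (y axis) against the mean CPM over the 8 libraries (x axis, log scale) for the 17913 genes tested in grey and the 40 genes coloured by role. The 6 genes under 0.5 CPM lie between 0.37 and 1.51, and the 8 at 5 CPM or more between -0.26 and 0.12.

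Of 153 further cell cycle genes in 7 lists, 147 were tested and 1 passed, which is 0.68% against 2.99% of all genes tested. At an unadjusted edgeR p under 0.05 the shares were 12.2% and 17.2%. Both shares are below the background. Their log2 fold changes had a median of 0.026. Ube2c, the ubiquitin-conjugating enzyme of the anaphase-promoting complex, was at 0.646, 0.339, 0.420 and 0.469 CPM in heterozygote libraries and 0.173, 0.196, 0.213 and 0.222 CPM in WT libraries. The genotypes did not overlap, as for the 6.99% of all genes tested that separated with higher values. Ube2c rose 2.24-fold (log2 fold change 1.17 ± 0.283 (SE), edgeR adjusted p = 0.0471). The call was close to the threshold: it held without heterozygote library 2 (edgeR adjusted p = 0.0447) and was lost without any one of the other 7 libraries (edgeR adjusted p = 0.0646 to 0.134). It was also lost with spike-in scaling (edgeR adjusted p = 1), without the low-count filter (0.0555), without WT libraries 1 and 3 together (0.299) and within odd-numbered or even-numbered libraries (0.181 and 0.579). Ube2c was 1 of 29 genes tested in the list of spindle and mitotic exit genes. In the kinetochore list none of 27 passed. Its lowest p-values belonged to Nuf2 and Ndc80, parts of the complex that grips microtubules, with log2 fold changes of 0.81 ± 0.204 and 1.26 ± 0.385 (SE; edgeR adjusted p = 0.0533 and 0.104). Ndc80 was at 0.306, 0.301, 0.265 and 0.296 CPM in heterozygote libraries and 0.0933, 0.0922, 0.0501 and 0.234 CPM in WT libraries, and did not overlap. For Ndc80, WT library 4 alone in WT was above the low-count cutoff of 0.123 CPM, and every heterozygote library was. The direction of Ndc80 was thus favoured by the filter. Without WT library 4, the highest for Ndc80 in WT, Nuf2 and Ndc80 passed (edgeR adjusted p = 0.0366 and 0.0194). With any other library left out neither passed (edgeR adjusted p up to 0.153 and 0.251). Nuf2 also passed with upper quartile scaling and without the low-count filter (edgeR adjusted p = 0.049 and 0.0385) and with the DESeq2 Wald test (adjusted p = 0.00694).

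Among genes that act before mitosis, none of 18 origin genes passed. The lowest p-values there were those of Orc4 and Orc6, subunits of the origin recognition complex, at log2 fold changes of -0.18 and -0.095 (edgeR adjusted p = 0.0541 and 0.339). Orc4 passed without WT library 2 (edgeR adjusted p = 0.0362) and with the DESeq2 Wald test (adjusted p = 0.0113), and the sign for Orc6 turned with spike-in scaling. None of 29 replication fork genes passed, and Uhrf1 and Tk1, for maintenance methylation and thymidine salvage, differed by 0.59 and 0.49 (edgeR adjusted p = 0.158 and 0.237). None of 26 genes of G1 and the E2F and Rb network passed, with Ccnd3 and Cdk4, a cyclin D and its kinase, at 0.28 and 0.11 (edgeR adjusted p = 0.0983 and 0.116). Ccnd3 passed without WT library 4 and in odd-numbered libraries alone (edgeR adjusted p = 0.0329 and 0.0209), and with the DESeq2 Wald test (adjusted p = 0.0274). None of 12 condensin and cohesin genes passed, with Stag1 and Top2b at -0.055 and -0.067 (edgeR adjusted p = 0.425 and 0.457), both above 0 with spike-in scaling.

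CDK inhibitors block the kinases above, and none of 6 tested passed. Cdkn1c, which encodes p57, was at 13.0, 12.4, 13.2 and 12.1 CPM in heterozygote libraries and 2.93, 6.20, 3.60 and 8.62 CPM in WT libraries (log2 fold change 1.22 ± 0.293 (SE), edgeR adjusted p = 0.0813). The genotypes did not overlap, and WT libraries 1 and 3 were the lowest. Cdkn1c passed without WT library 4 and without WT libraries 1 and 3 together, at log2 fold changes of 1.57 and 0.77 (edgeR adjusted p = 0.00575 and 0.0149). It also passed with limma-voom (adjusted p = 0.0121), with the DESeq2 Wald test (adjusted p = 0.0109) and in odd-numbered libraries alone (edgeR adjusted p = 0.000351). It passed with spike-in scaling too (edgeR adjusted p = 0.000563), under which the Nr2f1 call was lost. Cdkn1c did not pass with any other single library left out (edgeR adjusted p up to 0.194) or without the low-count filter (0.145). Nor did it pass with replicate number as a block or in even-numbered libraries (edgeR adjusted p = 0.188 and 0.136). Cdkn3, a phosphatase that acts on CDKs, had a log2 fold change of -0.55 ± 0.326 (SE, edgeR adjusted p = 0.422).

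Summed levels of markers of choroid plexus and ependymal cells were apart between genotypes, as Cdk1 was. The summed level of 12 choroid plexus markers was 5740, 6460, 5610 and 5670 CPM in heterozygote libraries and 218, 2170, 749 and 2970 CPM in WT libraries. That of 10 ependymal markers was 56.4, 55.0, 48.2 and 73.6 CPM in heterozygote libraries and 17.6, 31.9, 17.7 and 31.2 CPM in WT libraries. Within WT, Cdk1, Cdkn1c and both lists were lower in libraries 1 and 3 than in libraries 2 and 4. These are also the odd-numbered and even-numbered libraries, whose ERCC mixes differed. In heterozygotes Cdk1 was lower in libraries 1 and 3 too, at 0.748 and 0.774 CPM against 0.853 and 0.876 CPM. Cdkn1c and both lists did not split that way in heterozygotes. The part of this split in the values was not tested. The summed level of the 6 scarcest cell cycle genes was in another order, lowest in WT library 1 and next in WT library 2. Of the ependymal genes 8 of 10 passed as higher, against 2.62% of all genes tested. Of the choroid plexus genes 0 of 12 passed, though all 12 values were above 0, with a median log2 fold change of 1.81. Every gene of both lists was separate between genotypes with higher values, as were 6.99% of all genes tested. The part of choroid plexus and ependymal cells in the differences of Cdk1, Bub1, Aurkb and Ube2c was not tested.

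Meningeal markers summed to 338 to 411 CPM in heterozygotes and 103 to 262 CPM in WT. Of these 0 of 10 were called, though all 10 values were above 0, with a median log2 fold change of 0.84. Igf2 was the largest part of the sum, at a mean of 249 CPM in heterozygotes and 90.2 CPM in WT. Of 11 progenitor and neuroblast markers tested, 3 rose, namely Eomes, Igfbpl1 and Calb2, and 8 did not pass. Eomes, which marks intermediate progenitors, was at 1.55, 1.03, 1.75 and 1.54 CPM in heterozygote libraries and 0.227, 0.553, 0.150 and 0.189 CPM in WT libraries. Microglia, endothelial and oligodendrocyte precursor lists had 0 of 8 called each, with median log2 fold changes of -0.0095, -0.025 and 0.046. Genes of multiciliated cell commitment, a list of 5 distinct genes tested, had none called. Foxj1, which is also in the ependymal list, and Gmnc were separate between genotypes, at log2 fold changes of 1.09 and 0.50 (edgeR adjusted p = 0.0717 and 0.0827). Mcidas, Ccno and Deup1 overlapped, at -0.47, -0.12 and -0.028. The list summed to 21 to 30.2 CPM in heterozygotes and 10.9 to 17.7 CPM in WT, with means of 24.9 and 14.2 CPM. Most of that difference was Foxj1, which averaged 17.6 CPM in heterozygotes and 8.17 CPM in WT. The part of progenitors or of any of these cells in the cell cycle values was not tested.

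**Figure D5:**
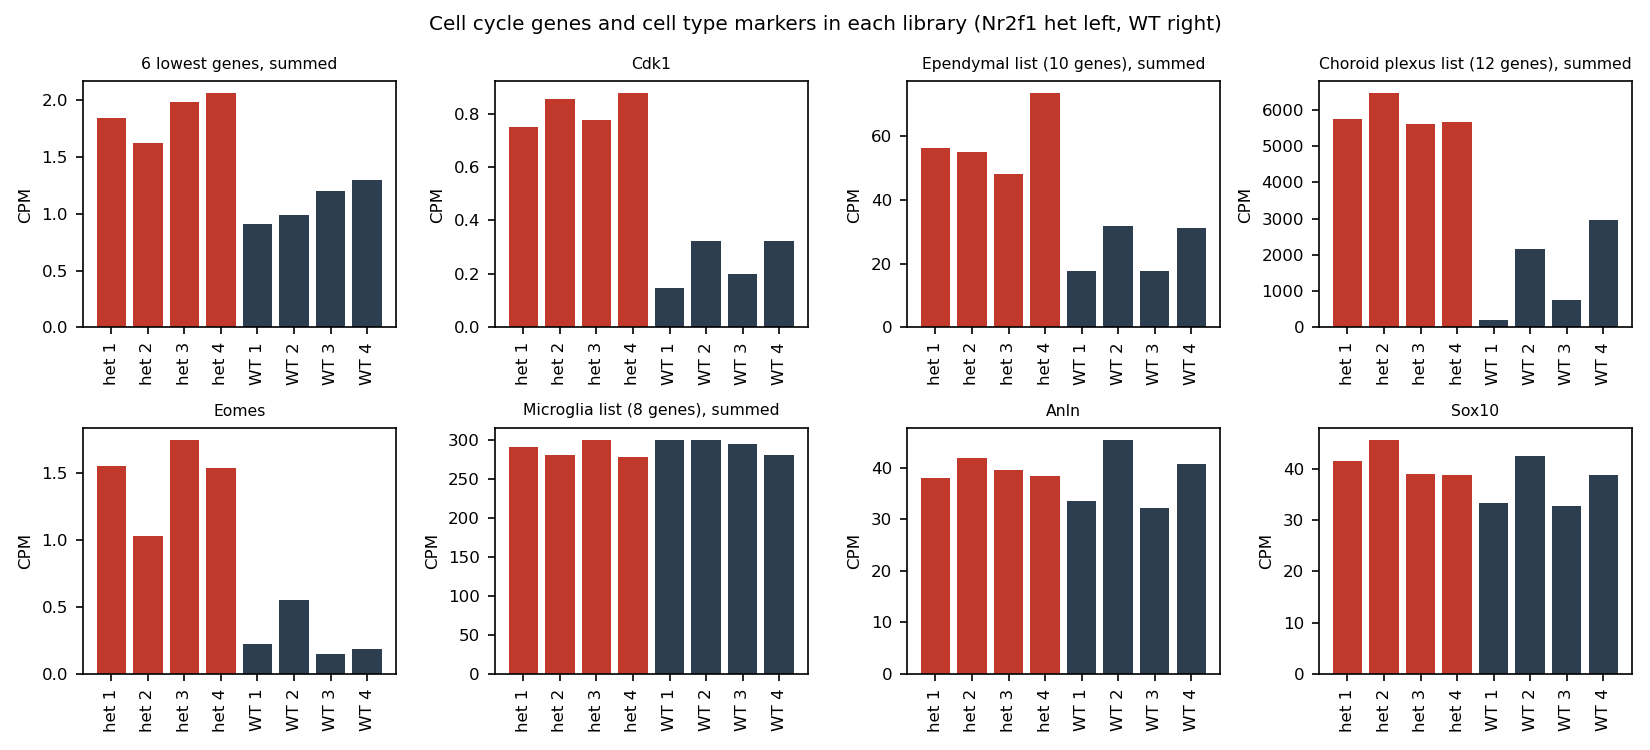
CPM in each of the 8 libraries (bars, heterozygotes in red on the left, WT in dark blue on the right) for cell cycle genes and for cell type markers. Cdk1, the 6 scarcest genes, the ependymal and choroid plexus lists and Eomes are higher in each heterozygote library than in any WT library, and the microglia list and Anln overlap. Bub1, Aurkb and Hmmr, among the 6, reached the low-count cutoff through the heterozygote libraries.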

How the data were processed

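The authors deposited raw counts of reads by Ensembl gene identifier for all 8 libraries, beside 92 ERCC spike-in rows. The submitters' processing notes name mm9 and NCBIM37 as builds and HTSeq, STAR 2.4.2a, DESeq2 and FastQC as tools. The settings, annotation and strand of the counting were not given. Per the labels' protocols, cDNA from 10 ng of total RNA was amplified with a NuGEN Ovation kit, which does not mark strand. Spike-in rows, 0.0431% to 0.0787% of a library, were left out of library sizes and tests. Symbols (32620 identifiers matched), chromosomes and exon lengths came from GENCODE M21, which is on GRCm38, so levels per kilobase are approximate.

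Counts were TMM-normalised, filtered with filterByExpr (minimum 10, total 15) and compared with the two-sided quasi-likelihood F test of edgeR 4.0.16 in R 4.3.3, without covariates, with Benjamini-Hochberg adjustment over 17913 genes. Alternatives used limma 3.58.1 and DESeq2 1.42.0. The fits were tested on simulated data. Standard errors are the log2 fold change over the root of F. The members, lists, alternatives and naming rule were chosen with earlier results of these data known. All 40 genes are accounted for. From each further list, up to 4 genes past the threshold are named, or the 2 with the lowest p where none passed. Cdkn2d was not analysed here. Libraries of a genotype differed beyond sampling noise (chi-square per degree of freedom 7.42 to 25), so none was a duplicate.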

Additional observations from a re-analysis of the deposited data

Results flagged for a closer look

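In each genotype a library that stood apart from the other 3 was looked for by Dixon's gap test in 108 groups of 4 values (Nr2f1, the 40 genes and the 13 further cell cycle genes named by rule). It found 4, and chance gives about 1 in 20. Kif23 was at 1.55 CPM in heterozygote library 3, against 0.814 to 0.901 CPM in the other heterozygotes. Mcm5 was at 3.24 CPM in WT library 1, against 4.13 to 4.30 CPM in the other WT libraries. Cdk4 was at 36.8 CPM in WT library 4, where the other WT libraries were at 38.2 CPM. Cdkn3 was at 0.0863 CPM in heterozygote library 4, against 0.251 to 0.277 CPM in the other heterozygotes.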

How the results depend on the processing

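The number of genes called over the whole table was 535. It was 185 with spike-in scaling, 1200 with the DESeq2 Wald test, 78 in even-numbered libraries alone, 170 without WT libraries 1 and 3, and 171 to 767 with 1 library left out. Of the 40 genes, the number higher (1) was 0 with spike-in scaling, 0 with a filter of 1 CPM in 4 libraries, under which Cdk1 was not tested, and 0 in even-numbered libraries. It was 2 with DESeq2 and 2 with limma-voom, where Bub1 was added, and 1 to 2 with 1 library left out. The number lower (1) was 0 with spike-in scaling, 0 in odd-numbered and 0 in even-numbered libraries, 0 without WT libraries 1 and 3, and 0 to 1 with 1 library left out. The Nr2f1 check gave a log2 fold change of -0.638 with spike-in scaling and did not pass (edgeR adjusted p = 0.897). The causes were not tested. Replicate numbers did not pair the samples (correlations of same-numbered deviations 0.0269, -0.0449, -0.0932 and -0.078). With the replicate block 406 genes were called, Cdk1 and Cdc25b passed (edgeR adjusted p = 0.0149 and 0.041), Ube2c was lost (0.092), and Ccnd3 and Nuf2 were gained (0.0342 and 0.0284).

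Signs turned only for genes that did not pass, as log2 fold changes. With spike-in scaling they were Ccnb2 0.0054, Mcm6 0.0863, Smc2 0.0948, Orc6 0.00542, Stag1 0.0397 and Top2b 0.0228. With upper quartile scaling Smc2 was 0.00531, and with limma-voom Mcm6 was 0.00779. With DESeq2 Ccna2 and Cenpe were -0.000477 and -0.00177, and without a filter -0.0021 and -0.00233. In odd-numbered libraries Birc5 was -0.11, Ccnb2 0.0651, Cenpe -0.207, Cenpf -0.0495, Kif20a -0.00559, Smc4 -0.0104 and Tyms -0.179. In even-numbered libraries Anln was -0.102, Ccna2 -0.109, Cdca8 0.0277, Kif20b 0.267, Kif23 -0.00568, Mcm5 -0.0192, Mcm6 0.339 and Smc2 0.186. Without WT libraries 1 and 3 Anln was -0.13, Ccna2 -0.107, Kif20b 0.0224, Mcm5 -0.0229, Mcm6 0.186 and Smc2 0.102. With 1 library left out the ranges were Anln -0.0189 to 0.159, Birc5 -0.0337 to 0.263, Ccna2 -0.0979 to 0.0985, Ccnb2 -0.219 to 0.0465, Cenpe -0.0605 to 0.0668, Kif20a -0.018 to 0.242, Kif4 -0.0159 to 0.274, Mcm5 -0.0366 to 0.0891, Mcm6 -0.158 to 0.0747, Prc1 -0.00353 to 0.105, Smc2 -0.0479 to 0.0502, Smc4 -0.0154 to 0.0623 and Tyms -0.00437 to 0.165. Of the 2571 genes tested under 0.5 CPM, 34 rose and 2 fell, and the median SE of a log2 fold change was 0.361 there, against 0.049 at 5 CPM or more.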

Other observations

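Pttg1, the gene of securin, which holds separase inactive until anaphase, fell into separate levels that did not follow genotype. It was at 11.5, 10.3, 0.288 and 0.382 CPM in heterozygote libraries 1 to 4 and at 0.400, 0.323, 11.2 and 0.189 CPM in WT libraries 1 to 4. Heterozygote libraries 1 and 2 and WT library 3 thus held 675, 819 and 897 counts, and the other 5 libraries 17 to 31. Pttg1 was in the list of spindle and mitotic exit genes and did not pass (log2 fold change 0.81, edgeR adjusted p = 0.846). It was singled out after its values were seen.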
